A study of Homo sapiens with 4 samples.

Results

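MUC1, KRT7, KRT8, KRT18, KRT19 and EPCAM are markers of epithelial cells, read here in RNA that came down with the splicing factor SF3B6 from a breast cancer line usually described as mesenchymal-like. The 6 genes were taken by symbol from a table of 18276 genes. The set was chosen by its measured difference between precipitated and input RNA in these libraries, with MUC1 above input, so their own values in that comparison are described without a test. The cells were MDA-MB-231, a triple-negative human breast cancer line. All 4 libraries came from cells irradiated at 400 mJ/cm2 (the labels do not name the radiation), whose lysates were digested with micrococcal nuclease. In 2 libraries the RNA was recovered with an SF3B6 antibody (SF3B6 IP 1 and 2), and 2 are input RNA without that step (Input 1 and 2). The design text calls each pair biological replicates. The cell line entries differ between samples in their last digit, while every title names MDA-MB-231. A control IgG antibody is named in the protocols, but only input served as a reference, so RNA that sticks to antibody or beads was not separated from RNA held by SF3B6.

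Keratins are the intermediate filament proteins of epithelia, and a filament needs a type II keratin paired with a type I keratin. KRT8 with KRT18 is the first pair of simple epithelia, KRT7 is a further type II keratin and KRT19 a further type I keratin of glandular cells. MUC1 is a heavily glycosylated membrane mucin, with a long stretch of tandem repeats in its coding sequence, and EPCAM is an adhesion molecule of epithelial cells. Cells that take on a mesenchymal state often lower such genes under repressors such as ZEB1 and SNAI2, which bind E-box sequences. SF3B6 is a small protein of the SF3b complex, which belongs to the U2 snRNP and sits at the branch point of introns.

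Depth was low and uneven. The IP libraries held 55492 (replicate 1) and 30431 (replicate 2) counts in genes, against 317190 and 519836 for the inputs. All IP depth lies under all input depth, so depth and precipitation cannot be told apart. A chi-square divided by its degrees of freedom, which is near 1 where counting noise alone separates a pair, was 4.75 for the IP pair over 576 genes and 1.72 for the input pair over 6053. A gene tested at the default expression filter had a median of 8 counts over the IP libraries together and of 86 over the inputs. Of the 6 genes, 5 passed that filter and EPCAM did not. Levels below are CPM, counts brought to a common library size after TMM scaling, which aligns libraries by the bulk of their genes, or the authors' FPKM, which also divides by gene length. Fold changes are relative to the rest of each library, since IP and input have no common absolute scale.

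The genes lie on 4 chromosomes (RefSeq, GRCh38.p14). MUC1 is at chr1:155185824-155192915, KRT7 at chr12:52233243-52255853, KRT19 at chr17:41523617-41528308 and EPCAM at chr2:47369311-47387020. KRT8 (chr12:52897191-52949860) and KRT18 (chr12:52948855-52952906) are adjacent, and their spans share 1006 bases. No source used here says whether the counting used strand, so reads in that stretch cannot be assigned with certainty. KRT7 overlaps the antisense gene KRT7-AS over 2406 bases, the keratin pseudogene KRT87P over 5310 bases and the pseudogene TMT1AP1, not analysed here, over 39. The first pair held few counts: 1 and 2 in the IP libraries and 5 and 14 in the inputs for KRT7-AS, and 0, 1, 2 and 6 for KRT87P in the same order. Processed pseudogenes of KRT8 (9 listed) held 1 IP and 19 input counts in all, and those of KRT18 (9 listed) held 3 and 21. MUC1 overlaps no other RefSeq gene. Its analysed neighbour THBS3-AS1 had 0 counts in the IP libraries and 3 and 4 in the inputs.

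Promoter sequence was on hand for MUC1 and KRT8, and is shown because the E-box is the element that the repressors of the epithelial state recognise. Promoter activity was not measured. Each line gives the 120 bases before the transcription start in the direction of the gene, from RefSeq GRCh38.p14, minus strand for both, at chr1:155192916-155193035 and chr12:52926470-52926589. Capitals mark the E-box (CAGGTG or its reverse complement CACCTG) and TATAAA, each searched on both strands.
MUC1: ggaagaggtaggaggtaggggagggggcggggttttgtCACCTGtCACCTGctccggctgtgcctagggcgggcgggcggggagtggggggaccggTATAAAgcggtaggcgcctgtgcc
KRT8: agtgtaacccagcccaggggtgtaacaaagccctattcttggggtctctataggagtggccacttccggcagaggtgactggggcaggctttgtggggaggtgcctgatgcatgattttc
The MUC1 window held 2 E-boxes, starting at positions -82 and -75 from the transcription start, and a TATAAA at -24. It also held 4 matches to the GC box GGGCGG. The KRT8 window held none of the 3 motifs. It lies inside the RefSeq span of the gene, and the sequence before starts farther upstream was not examined. Among 27305 promoters of the same table, 8.34% held an E-box in this window, 6.01% a TATAAA and 34.02% a GC box. G and C made up 66% of the 250 bases before the MUC1 start and 50.4% of those before this KRT8 start.

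The input libraries show which of these markers the cells carried. KRT7 had the highest level per length, at 23.2 FPKM in Input 1 and 32.01 FPKM in Input 2. MUC1 stood at 20.2 and 17.1 FPKM, KRT18 at 14.3 and 22.4 FPKM, KRT19 at 12.9 and 21.4 FPKM and KRT8 at 11.7 and 14.4 FPKM. Across the inputs these ranges overlap for MUC1, KRT18 and KRT19. KRT8 overlapped KRT18 and KRT19, while the range of KRT7 lay above all the others. Within each input KRT18 stood above KRT19 and KRT19 above KRT8. MUC1 stood above KRT18 and KRT19 in Input 1 and below both in Input 2. These orders were not tested. EPCAM was far below, at 0.39 and 0.65 FPKM from 2 and 4 counts. Among 13464 nuclear protein-coding genes, KRT7 ranked 91 and 99 by FPKM in the inputs, MUC1 112 and 260, KRT18 189 and 165, KRT19 217 and 174, KRT8 261 and 342, and EPCAM 7305 and 6814. A bulk library does not tell fewer cells with an RNA from less of it per cell.

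The epithelial label held only in part. Besides EPCAM, CDH1 (E-cadherin) had 1 and 3 input counts, CLDN3 (claudin 3) 1 and 3, ESRP1 (an epithelial splicing regulator) 0 and 0 and RAB25 1 and 0. CLDN7 had 5 and 9. CLDN4 was well counted, at 121 and 203, as was SPINT2 (178 and 324). On the mesenchymal side, VIM (vimentin) stood at 26.1 and 40.4 FPKM and AXL, a receptor tyrosine kinase, at 80.0 and 118 FPKM, rank 4 in each input. Of 49 mesenchymal markers, 44 were analysed, summing to 4805 and 8521 input counts that were unevenly spread. SPARC had 0 and 2, MMP2 0 and 1 and COL3A1 0 and 1, while CDH2 was not found among the 18276 genes listed. Throughout, genes given as not analysed are those not found there. The repressors were thinly covered, with 5 and 11 input counts for ZEB1, 4 and 2 for ZEB2, 1 and 2 for SNAI1 and 0 and 4 for SNAI2. Thus the keratins and MUC1 were read together with abundant vimentin and AXL. Reads were few for CDH1 and EPCAM and also for some of the other mesenchymal markers. Of luminal breast markers, 12 of 17 were analysed, summing to 165 and 286 input counts. MLPH led with 72 and 126, while GATA3 had 4 and 15. Per length, MLPH stood at 4.57 and 6.65 FPKM in Input 1 and 2, below the 12.9 and 21.4 FPKM of KRT19. Markers of fibroblasts, blood and endothelium were scarce. Fibroblast markers (4 of 10 analysed) summed to 15 and 36 counts in the inputs and to 4 and 1 in the IP libraries. Blood and endothelial markers (7 of 13) summed to 3 and 4 counts in the inputs and to 3 and 3 in the IP libraries, which is 10.6 and 8.15 CPM against 66.1 and 131 CPM. Basal and squamous keratins (4 of 19) summed to 12 and 9 input counts and 8 and 4 IP counts, or 42.2 and 18.3 CPM against 176 and 174 CPM. These sums were thus higher in IP on few counts, and their part in the values of MUC1 was not tested.

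In both SF3B6 IP libraries MUC1 had the highest level of this set, by CPM and by FPKM. By CPM it also led in Input 1, but not in Input 2, and by FPKM KRT7 led in both inputs. Its counts were 76 (replicate 1) and 25 (replicate 2) in IP against 202 and 205 in input. After scaling that was 1673 and 1089 CPM in IP against 711 and 418 CPM in input. MUC1 was 1 of the 6 genes with both IP libraries above both inputs, a position held by 20.9% of the 3668 tested genes. For reference, edgeR's test at an adjusted p under 0.05 called 4.06% of tested genes in either direction. The means were 1381 ± 413 CPM in IP and 564 ± 207 CPM in input (SD, n = 2 libraries each). The fitted log2 fold change was 1.42 ± 0.24 (SE), a 2.68-fold difference. The ratio of pooled counts was 2.81, with a 95% exact interval from 2.24 to 3.51 that covers counting error only. Of all tested genes, 3.41% had a larger log2 fold change, a share that was 14.7% without SF3B6 IP 1, 9.83% without Input 2 and 13.95% with no filter on low counts.

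The keratins did not share that shift. KRT7 counts were 32 and 8 in the IP libraries against 197 and 326 for the inputs, or 705 and 349 CPM against 693 and 665 CPM. Its IP libraries lay on either side of the inputs, with a mean of 527 ± 252 CPM against 679 ± 20.2 CPM (SD, n = 2 libraries each) and a log2 fold change of -0.22 ± 0.25 (SE). KRT8 counts were 18 and 13 in IP against 171 and 253 in input, or 396 and 566 CPM against 602 and 516 CPM, which overlapped. Its log2 fold change was -0.28 ± 0.27 (SE). The ratio of SF3B6 IP 1 to SF3B6 IP 2 was 2.02 for KRT7 (95% exact interval 0.912 to 5.08) and 0.700 for KRT8 (0.324 to 1.55), so the IP libraries did not differ beyond counting error for either gene.

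The type I keratins had nearly the same scaled level in every library. KRT18 had 14 and 7 IP counts and 93 and 175 input counts, giving 308 and 305 CPM against 327 and 357 CPM, a log2 fold change of -0.17 ± 0.32 (SE). KRT19 had 10 and 5 IP counts and 64 and 127 input counts, giving 220 and 218 CPM against 225 and 259 CPM, a log2 fold change of -0.16 ± 0.38 (SE). Both genes lay below both inputs in the 2 IP libraries, as did 28.5% of tested genes, but by less than the counting error of 15 to 21 IP counts. The pooled ratio of KRT18 was 0.888, with an interval from 0.541 to 1.39, and that of KRT19 was 0.890, from 0.489 to 1.51. The median over the 4 keratins was -0.19 on the log2 scale, beside -0.06 over all tested genes, and between 55.7% and 62.1% of tested genes had a larger value than each of them. EPCAM had 1 and 0 IP counts and 2 and 4 input counts, a pooled ratio of 1.89 with an interval from 0.0411 to 15.6, so its recovery could not be read at this depth. The 0 in SF3B6 IP 2 allows a level of up to 131 CPM on the TMM scale (3 counts).

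**Figure D1:**
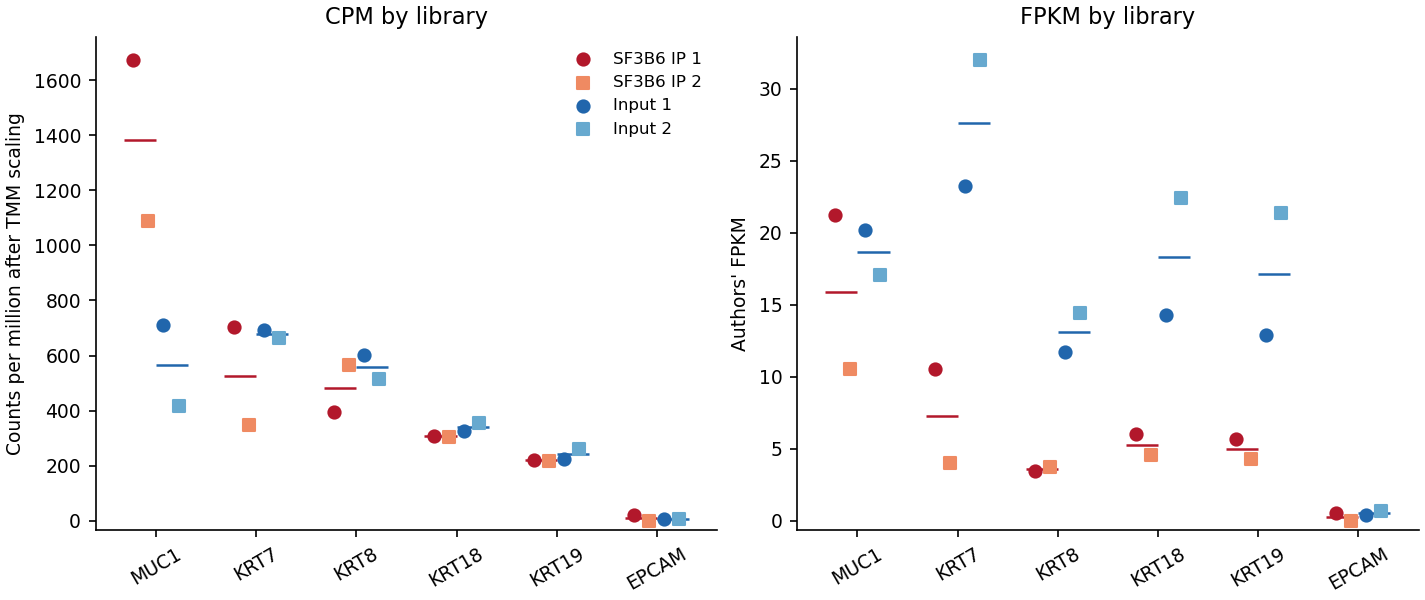
Level of each gene in the 4 libraries, as CPM after TMM scaling (left) and as the authors' FPKM (right), both on linear axes; red symbols are IP, blue are input, and bars are group means of 2 libraries. MUC1 is the gene whose IP libraries, at 1673 and 1089 CPM, stand clear of its inputs on the left, while on the right its IP values of 21.3 and 10.6 FPKM lie around its inputs and those of the 4 keratins lie below theirs.

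The contrast between MUC1 and the keratins needs no scaling, because their counts can be set against each other within a library. For each count of KRT7, KRT8, KRT18 and KRT19 together, SF3B6 IP 1 held 1.03 MUC1 counts (76 over 74, 95% exact interval 0.736 to 1.43) and SF3B6 IP 2 held 0.758 (25 over 33, 0.432 to 1.31). Input 1 held 0.385 (202 over 525, 0.325 to 0.453) and Input 2 held 0.233 (205 over 881, 0.199 to 0.271). Both IP values lay above both inputs, although the interval of SF3B6 IP 2 reached into that of Input 1. The mean was 0.892 ± 0.191 in IP and 0.309 ± 0.108 in input (SD, n = 2 libraries each), a 2.89-fold difference that ran from 2.32 to 3.83 when each library was left out in turn. Against each keratin singly, pooled over libraries, MUC1 counts went from 0.778 to 2.52 per KRT7 count between input and IP, from 0.960 to 3.26 per KRT8 count, from 1.52 to 4.81 per KRT18 count and from 2.13 to 6.73 per KRT19 count. The order by length-corrected level changed accordingly. MUC1 was 0.870 and 0.533 times KRT7 by FPKM in Input 1 and 2, and 2.01 and 2.65 times KRT7 in SF3B6 IP 1 and 2.

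**Figure D2:**
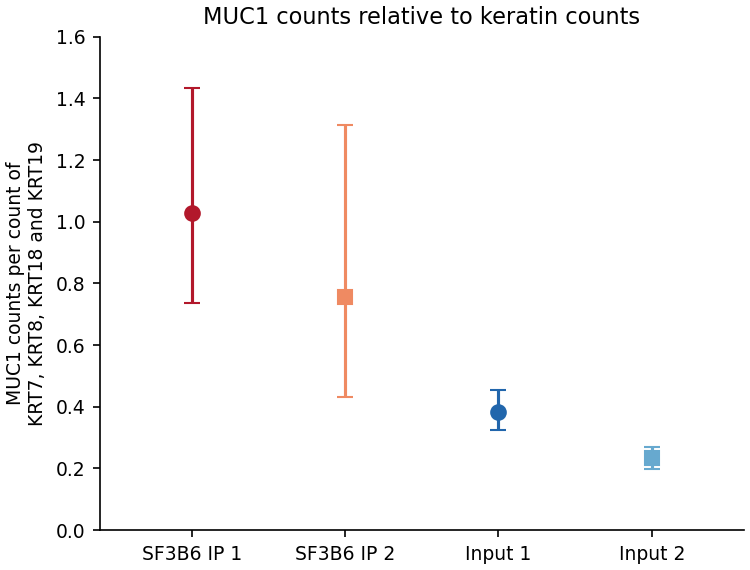
MUC1 counts per count of the 4 keratins together in each library (linear axis from 0), with 95% exact intervals that cover counting error only. The IP libraries stand at 1.03 and 0.758 and the inputs at 0.385 and 0.233.

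The inputs themselves differed for MUC1. Scaled MUC1 was 1.70 times as high in Input 1 as in Input 2 (95% exact interval 1.39 to 2.08, a comparison of those libraries alone). The same ratio was 1.03 for the 4 keratins together, with an interval from 0.921 to 1.15. Of 528 genes whose input counts were within a factor of 2 of those of MUC1, 4 had a higher ratio. The IP libraries differed by 1.54 for MUC1, with an interval from 0.966 to 2.52. By replicate number, MUC1 was 2.35 times as high in SF3B6 IP 1 as in Input 1 (1.78 to 3.08). It was 2.61 times as high in SF3B6 IP 2 as in Input 2 (1.65 to 3.96). The keratins together were at 0.882 (0.682 to 1.13) and 0.801 (0.548 to 1.13) in the same comparisons. All these intervals cover counting error only, and the numbers were not taken to pair the libraries. MUC1 was chosen for lying above input, so its intervals are no test.

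The makeup of the keratin counts was alike in the inputs and less certain in IP. KRT7 made up 37.5% and 37.0% of the 4 keratins' counts in Input 1 and 2, with exact intervals of 33.4% to 41.8% and 33.8% to 40.3%. In SF3B6 IP 1 it was 43.2% (31.8% to 55.3%) and in SF3B6 IP 2 24.2% (11.1% to 42.3%). KRT8 went the other way, at 24.3% (15.1% to 35.7%) in SF3B6 IP 1 and 39.4% (22.9% to 57.9%) in SF3B6 IP 2, beside 32.6% and 28.7% in the inputs. These intervals overlap, so a change in makeup was not detectable at this depth. By FPKM, the type II keratins stood at 1.28 and 1.06 times the type I keratins in the inputs and at 1.201 and 0.880 times in IP.

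How MUC1 reads against zero depended on the scale. Its distance from other genes was alike in 5 scalings of the counts and smaller on log2(FPKM + 1). Those scalings shift all genes by nearly the same amount, so their likeness was fixed in advance and is no support. The FPKM table rests on library totals that stand, relative to Input 1, at 0.357, 0.236 and 1.201 for SF3B6 IP 1, SF3B6 IP 2 and Input 2. Counts in genes stand at 0.175, 0.0959 and 1.64. With the FPKM totals the median of all tested genes was -1.65 on the log2 scale, and MUC1 was at -0.20. Its FPKM values were 21.3 and 10.6 in IP against 20.2 and 17.1 in input, which overlap. The keratins were then at -1.87 for KRT7, -1.86 for KRT8, -1.77 for KRT18 and -1.76 for KRT19. Relative to the median of all tested genes MUC1 stood at 1.48 under TMM, under upper quartile scaling, under library totals and under totals of nuclear protein-coding genes, and at 1.45 under the FPKM totals. On log2(FPKM + 1), which compresses low values, that distance was 0.76, with 6.60% of tested genes higher than MUC1. The keratins stood between -0.22 and -0.10 in those 5 scalings. Without 1 library, which also changed the genes tested, the distance of MUC1 from the median varied more than in those scalings. It was 1.13 without SF3B6 IP 1, 0.996 without Input 2, 1.69 without SF3B6 IP 2 and 1.78 without Input 1. The log2 fold change of MUC1 was 0.79, 1.04, 1.53 and 1.82 in the same order. KRT7 was at -1.17 without SF3B6 IP 1, where the median of all tested genes was -0.34.

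**Figure D3:**
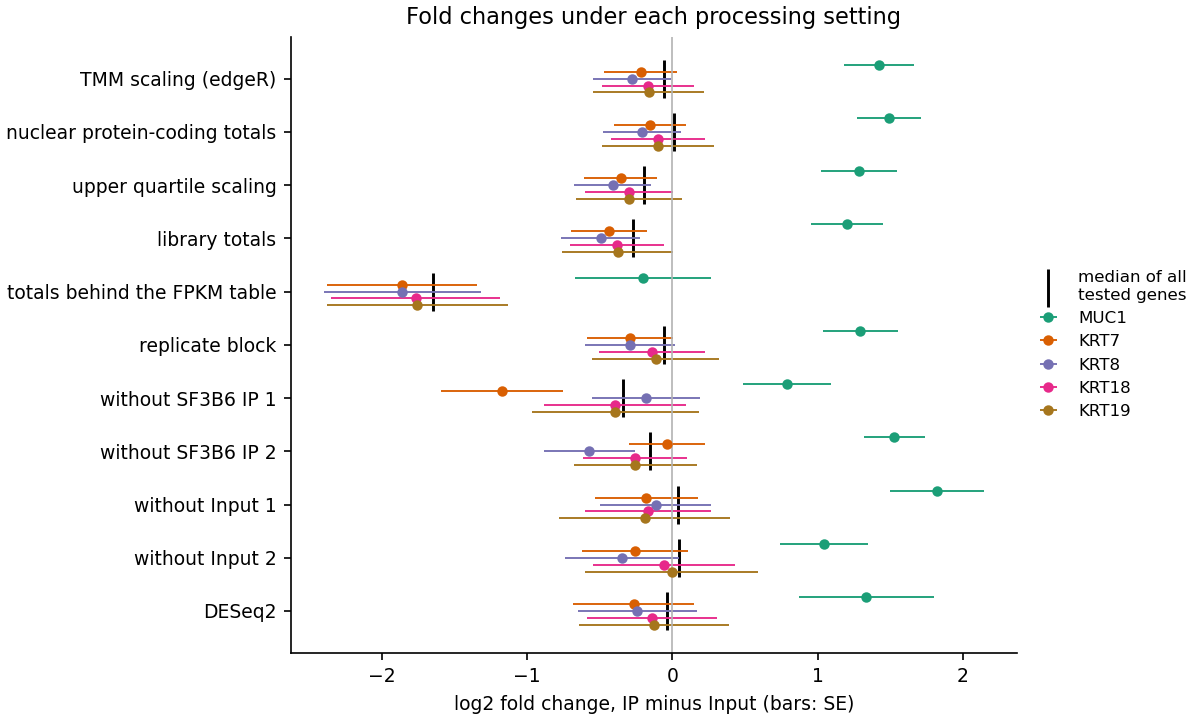
log2 fold change (IP minus input) of MUC1 and the 4 keratins under 11 settings, with SE bars and the median of all tested genes as a black tick; the horizontal axis is a log2 scale. MUC1 stays to the right of the tick throughout, at -0.20 against a median of -1.65 with the totals behind the FPKM table, and the keratins lie around the tick, farthest from it for KRT7 without SF3B6 IP 1. A change of scaling alone shifts genes and tick nearly together, and MUC1 was chosen for lying above input.

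Further epithelial genes were read against the calls over the whole table. There edgeR's quasi-likelihood test called 99 genes higher in IP (2.7% of those tested) and 50 lower (1.36%) at an adjusted p under 0.05. Of 116 further epithelial genes in 5 lists, 73 were analysed and 22 tested. Among these 1 was lower, PODXL, and 0 were higher, counts too small to set apart from the shares over the whole table. At an unadjusted p under 0.05, 574 of all tested genes passed. PODXL encodes podocalyxin, a sialomucin, and had 27 and 19 IP counts and 340 and 569 input counts, or 595 and 828 CPM against 1196 and 1160 CPM. It fell by 0.80 ± 0.23 (SE) on the log2 scale (edgeR adjusted p = 0.0452). That call was lost with totals of nuclear protein-coding genes (edgeR adjusted p = 0.0693), when at least 50 counts were required in 2 libraries (0.112), with a replicate block (0.145), with DESeq2 (0.390) and without SF3B6 IP 1 (0.418), Input 1 (0.287) or Input 2 (0.249). The median over the 22 genes was -0.44 on the log2 scale, against -0.06 over all tested genes. Both IP libraries lay below both inputs in 12 of them and above in 3, beside 28.5% and 20.9% of all tested genes.

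Among the other mucins and mucin-like genes, 10 of 25 were analysed and 3 tested. SDC1, a syndecan, had a log2 fold change of -0.37 ± 0.41 (SE, edgeR adjusted p = 0.745), and MUC5AC, a gel-forming mucin, -0.46 ± 0.83 from 3 IP counts (adjusted p = 0.877). PODXL, SDC1 and MUC5AC each lay below both inputs in both IP libraries, as did 28.5% of all tested genes. SDC1 and MUC5AC did so by less than their SE. MUC1, at 1.42 ± 0.24 (SE), stood above all 3, but it was chosen for lying above input, so that contrast was not tested. Of 12 keratin genes listed, the 4 described above held 86.2% of all keratin counts. KRT80 had 11 and 1 IP counts and 49 and 77 input counts, with a log2 fold change of 0.11 ± 0.47 (SE, edgeR adjusted p = 0.960), and KRT81 was at -0.11 ± 0.69 (0.972). The basal and squamous keratins had few counts. KRT5 had 4 counts in SF3B6 IP 1 and 0 elsewhere, KRT17 had 4, 0, 0 and 1 in SF3B6 IP 1, SF3B6 IP 2, Input 1 and Input 2, and KRT10 had 0, 4, 10 and 6.

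Genes of epithelial junctions and polarity, 13 tested of 35, had a median log2 fold change of -0.54 with no call in either direction. ITGB4, the hemidesmosome integrin, was the best counted, at 661 and 871 CPM in IP against 1200 and 1099 CPM in input (log2 fold change -0.64 ± 0.23 SE, edgeR adjusted p = 0.127). CLDN4 was at -0.84 ± 0.33 (0.182). EVPL, envoplakin, lay the other way, at 639 and 479 CPM in IP against 394 and 338 CPM (0.70 ± 0.26, adjusted p = 0.147). EVPL stood at -0.94 under the FPKM totals, and passed with a minimum of 50 counts in 2 libraries (0.90 ± 0.27, edgeR adjusted p = 0.0272). Epithelial regulators and surface proteases, 4 tested of 31, had a median of -0.33 and no call. SPINT2, an inhibitor of surface proteases, was at -0.42 ± 0.25 (edgeR adjusted p = 0.435) and SPINT1 at -0.25 ± 0.64 (0.919).

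Proteins that bind keratin filaments, 5 tested of 13, ran from -0.72 to 1.07 on the log2 scale, with a median of 0.10 and no call. PLEC, plectin, which ties intermediate filaments to junctions, was among the most abundant messengers, with 1133 and 554 IP counts and 5632 and 9837 input counts. It stood at 24947 and 24140 CPM in IP against 19815 and 20051 CPM in input (log2 fold change 0.30 ± 0.25 SE, edgeR adjusted p = 0.613). DST, dystonin, was at -0.72 ± 0.26 (0.129) and FAM83H at 1.07 ± 0.55 (0.335). Signalling and glycosylation partners of MUC1, 14 tested of 30, had a median of -0.91, against -0.06 over all tested genes. Both IP libraries lay below both inputs in 10 of the 14 and above in 1, beside 28.5% and 20.9% of all tested genes. GALNT2, an enzyme that starts the O-glycans carried by mucins, was the one call, with 22 and 10 IP counts against 238 and 418 in input. It fell by 0.85 ± 0.25 (SE, edgeR adjusted p = 0.0453), and did not pass with totals of nuclear protein-coding genes (0.0643), a minimum of 50 counts in 2 libraries (0.0887), a replicate block (0.118), DESeq2 (0.318) or without any 1 library (0.0548 to 0.338). EGFR, a receptor known to bind MUC1, was at -0.77 ± 0.25 (0.0763) and GALNT10 at -0.97 ± 0.35 (0.129).

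Mesenchymal markers, 29 tested of 49, had a median log2 fold change of -0.15 with 2 genes lower and 0 higher in IP by edgeR's adjusted p. Over all tested genes the median was -0.06, with 1.36% called lower and 2.7% higher, and 2 calls are too few to set apart from these shares. Both IP libraries lay below both inputs in 13 of the 29 and above in 6, beside 28.5% and 20.9% of all tested genes. FN1, fibronectin, had 7 and 7 IP counts against 155 and 343, and fell by 1.63 ± 0.35 (SE, edgeR adjusted p = 0.00305). CDH11, a cadherin of mesenchymal cells, had 3 and 1 against 76 and 128, and fell by 2.16 ± 0.55 (adjusted p = 0.0175). Neither passed without SF3B6 IP 1 (edgeR adjusted p = 0.262 and 0.230), without Input 2 (0.119 and 0.294) or with DESeq2 (0.149 and 0.214), and CDH11 did not without Input 1 (0.218). AXL was at -0.57 ± 0.20 (edgeR adjusted p = 0.118), COL5A1, a fibrillar collagen, at -0.14 ± 0.20 (0.820), MMP14, a membrane protease, at 0.05 ± 0.20 (0.953) and VIM, the keratins' mesenchymal counterpart, at -0.29 ± 0.22 (0.563). VIM thus had a log2 fold change like that of KRT8. Luminal breast markers, 2 tested of 17, were at -0.04 for MLPH and -0.18 for XBP1.

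**Figure D4:**
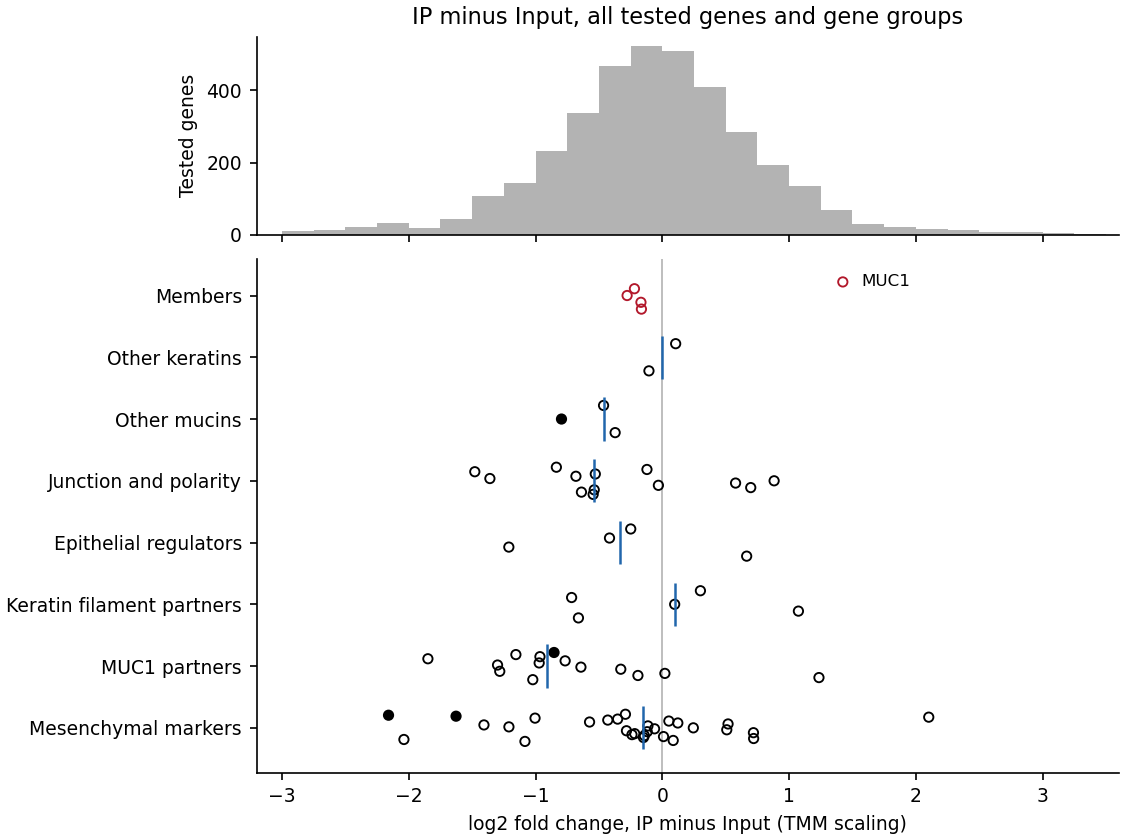
Top, log2 fold changes (IP minus input, TMM scaling) of the 3668 tested genes in bins of 0.25, 26 of which lie outside the axis; bottom, each tested gene of the lists, filled where the adjusted p was under 0.05, with blue bars for list medians. The 5 genes described here are red and untested, with MUC1 alone at 1.42; the filled points are PODXL, GALNT2, FN1 and CDH11.

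The genes most like MUC1 in pattern were compared by the distance between centred log2 CPM values over the 4 libraries, among 3291 other tested genes with at least 50 counts. They were SNORD3C, a U3 small nucleolar RNA gene (distance 0.33), the long non-coding RNA RP11-197N18.2 (0.38) and HNRNPF, which encodes an RNA-binding protein (0.42). SNORD3C had 506 and 436 CPM in IP against 267 and 165 CPM in input, RP11-197N18.2 had 528 and 261 against 215 and 143, and HNRNPF had 220 and 174 against 98.5 and 79.5. All 3 were, like MUC1, higher in Input 1 than in Input 2, which the choice by distance over these same libraries favours. The closest genes to KRT7, KRT8, KRT18 and KRT19 lay at distances of at most 0.10. They were NFRKB, RBM15 and SH3GLB2 for KRT7, POMT2, PPM1G and PPRC1 for KRT8, MTG2, GIT1 and KRT19 for KRT18, and SLC41A1, P3H2 and CDC20 for KRT19. Apart from SH3GLB2, with 12 and 3 IP counts, and KRT19, each of these had at most 4 counts in either IP library.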

How the data were processed

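The deposited values are whole-number counts of reads for each gene, without normalization, and FPKM, in which the authors scaled counts by gene length and library size. HISAT2, HOMER and hg38 are named in the submitters' processing notes; no source used here gives the counter, the strand setting or the treatment of multi-mapped reads. All 6 genes matched the RefSeq table of GRCh38.p14, and 2 its promoter table.

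IP and input were compared with edgeR 4.0.16 in R 4.3.3: quasi-likelihood test, TMM, default expression filter (3668 genes), group as the one term, Benjamini-Hochberg adjustment at 0.05. DESeq2 1.42.0 and limma 3.58.1 on log2(FPKM + 1) served as alternatives. Relative FPKM totals were the median of counts over FPKM against Input 1 for genes with at least 20 counts. Exact intervals at 95% used SciPy 1.17.1. PCR reads without molecular identifiers are not independent molecules. The test script was tested on simulated data.

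The members and lists were chosen with earlier results of these data known. From each of 11 lists the text names called genes (at most 6) and the 3 best counted, and for MUC1 and each keratin the 3 most alike genes; 1 gene that the rule names is not reported here. Marker, overlap and rank values beside these are descriptions.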

Additional observations from a re-analysis of the deposited data

How the results depend on the processing

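Calls over all genes, 99 higher and 50 lower in IP, became 60 and 90 under library totals, 17 and 2098 under the FPKM totals, 50 and 163 with no filter, 37 and 2 with DESeq2 (no adjusted p for 1636 genes) and 25 and 2548 with limma on log2(FPKM + 1). Lower calls were 25 with at least 50 counts in 2 libraries. The share of calls that were higher was 66.4% under TMM, 49.3% under upper quartile scaling, 40.0% under library totals, 74.7% under nuclear protein-coding totals and 0.804% under the FPKM totals. With the replicate number as a block, 68 and 22 genes were called, and MUC1 was at 1.29; same-numbered libraries deviated from their group means with a correlation of 0.00085 across 2184 genes, and with 2 pairs the numbers were not taken to pair the libraries. Leaving out 1 library gave 26 to 94 higher and 5 to 70 lower genes.

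MUC1 reversed to -0.20 with the FPKM totals and to -0.29 with limma on log2(FPKM + 1), scales on which the median of all tested genes was -1.65 and -1.05. On the latter KRT7 was at -1.90, KRT8 at -1.60, KRT18 at -1.60 and KRT19 at -1.58, and with the FPKM totals at -1.87, -1.86, -1.77 and -1.76. With no filter MUC1 was at 0.94, KRT8 at -0.76, KRT18 at -0.64 and KRT19 at -0.64, beside a median of -1.23. KRT18 and KRT19 were at -0.38 and -0.38 with library totals, KRT18 at -0.30 with upper quartile scaling, and they reversed to 0.035 and 0.039 with at least 50 counts in 2 libraries. Leaving out 1 library gave 0.79 to 1.82 for MUC1, -1.17 to -0.037 for KRT7, -0.57 to -0.11 for KRT8, -0.40 to -0.058 for KRT18, -0.39 to -0.0054 for KRT19 and 2.32 to 3.83 for MUC1 per keratin count.

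Lower epithelial genes, 1 with TMM, were 2 with library totals, 17 with the FPKM totals, 19 with limma on log2(FPKM + 1), 3 with no filter and 0 with nuclear protein-coding totals, the replicate block, DESeq2 or at least 50 counts in 2 libraries, where 1 was higher. Without 1 library they were 0 to 2. Lower mesenchymal genes, 2 with TMM, were 4 with upper quartile scaling, 5 with library totals, 23 with the FPKM totals, 23 with limma on log2(FPKM + 1), 9 with no filter and 0 with DESeq2, and 0 to 4 without 1 library. EVPL reversed to -0.94 with the FPKM totals and -0.85 with limma on log2(FPKM + 1). Tested genes had a median of 8 IP counts. The causes were not tested.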
